A study of Mus musculus with 40 samples.

Results

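Anergy is a state in which a T cell that has met antigen without full costimulation no longer responds to its receptor. Diacylglycerol kinases and E3 ubiquitin ligases are among the genes tied to it. The 7 genes described here are *Dgka* and *Dgkz* (diacylglycerol kinases α and ζ), *Cbl*, *Cblb*, *Itch* and *Rnf128* (E3 ligases, *Rnf128* encoding GRAIL) and *Ndrg1*, a factor linked to the maintenance of anergy. They were chosen by gene symbol, and all 7 were among the 21950 genes of the RNA-seq table.

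As background, the T cell receptor (TCR) opens several branches of signaling after phospholipase Cγ cleaves a membrane lipid. One product, diacylglycerol, recruits RasGRP and protein kinase C, and diacylglycerol kinases end this branch by turning diacylglycerol into phosphatidic acid. The other product releases calcium from internal stores, after which ORAI channels in the plasma membrane admit more calcium and calcineurin moves NFAT into the nucleus. Cbl family, Itch and GRAIL proteins attach ubiquitin to receptor-proximal signaling proteins. In anergic cells, calcium and NFAT signaling without its AP-1 partner has been tied to the expression of several of these genes.

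The 24 libraries were made from mouse CD4+ T cells in 8 groups of 3. Conventional T cells (Tconvs) and Foxp3-GFP+ regulatory T cells (called tTregs in the study and nTreg in the labels) were sorted from the spleens of Foxp3-GFP reporter mice aged 2 to 4 months, and each was analysed resting and activated. Induced Tregs (iTregs) came from CD62Lhi CD44lo naive T cells of mice aged 6 weeks, negative for a Foxp3-GFP or Foxp3-RFP reporter. The methods name both reporters without saying which one these libraries used. The naive cells were stimulated through CD3 and CD28 for 4 days with 2 ng/ml TGF-β and 200 U/ml IL-2. The resulting iTregs were sorted on the Foxp3 reporter and rested for 1 day in IL-2. They were analysed resting, restimulated, restimulated with an ORAI inhibitor (ORAIinh in the labels, CM-4620 in the study's text) and restimulated with cyclosporine A (CsA), which blocks calcineurin. No label or method gives how long the cells were stimulated before RNA was taken, nor whether the replicates were separate animals or cultures, so p-values measure only the spread between these libraries. The reporter gate marks Foxp3 and not thymic origin, and age, culture and cell type differ together between iTregs and the sorted cells and cannot be told apart.

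Values are normalized counts, in which every library's reads were divided by a size factor of its own. Depth ran from 5256800 to 15685234 reads on genes, with the shallowest libraries in tTregs. *Cd3e* and the other 4 T cell markers were present in every group. The summed level of 4 Treg markers was 458 to 478 normalized counts in resting Tconvs and 5116 to 5357 in activated Tconvs. It was 12269 to 17057 in iTregs and 20635 to 28206 in tTregs. This sum was mostly *Il2ra* in activated Tconvs (mean 4351) and resting iTregs (11560). *Foxp3* had means of 10.4 in resting and 33.8 in activated Tconvs, 1280 in resting and 710 in restimulated iTregs, and 7537 in resting tTregs. *Ikzf2* was at 167 in resting iTregs, against 195 in resting Tconvs and 9403 in resting tTregs. *Ctla4* was at 221 in resting Tconvs, 2144 in resting iTregs and 2897 in resting tTregs. The 4 B cell markers summed to between 89.0 and 136.2 in tTregs, with *Ms4a1* at 0, against 16.0 to 44.3 in the other groups. The 2 NK cell markers summed to between 19.3 and 30.9 in resting Tconvs, to at most 3.54 in activated Tconvs and to 0 in all Treg groups, and the 5 myeloid markers to between 34.97 and 43.1 in resting Tconvs against at most 18.9 elsewhere. The 2 CD8 T cell markers summed to between 223 and 236 in resting Tconvs and between 109.5 and 123 in activated Tconvs. The sums were between 105.4 and 177.8 in tTregs and between 99.0 and 126.4 in iTregs. These sums were mostly *Cd8b1*, with a mean of 229 in resting Tconvs. *Cd8a* went the other way, with its lowest group mean in resting Tconvs (2.57) and its highest in resting tTregs (9.65). Of the 3 red cell markers, *Hba-a1* was at 8.43 to 9.11 in resting iTregs and at most 2.64 elsewhere, and the 3 together reached 13.6 in resting tTregs. The part of these other cells in the differences between groups was not tested.

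The genes lie on 6 chromosomes of GRCm38, as annotated by GENCODE. *Dgka* is on chromosome 10 (128720134 to 128744855, minus strand), *Dgkz* on chromosome 2 (91932824 to 91975864, minus) and *Itch* also on chromosome 2 (155133509 to 155226855, plus). *Cbl* is on chromosome 9 (44142976 to 44234049, minus), *Cblb* on chromosome 16 (52031225 to 52208048, plus), *Rnf128* on chromosome X (139563316 to 139673145, plus) and *Ndrg1* on chromosome 15 (66929318 to 66969640, minus). In 3 genes some exon bases are shared with a gene on the other strand, which the counting may not separate, 8.43% of them in *Ndrg1*, 3.54% in *Dgkz* and 2.20% in *Dgka*. The other 4 share none.

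*Cbl* and *Cblb* encode close relatives, and because they moved in opposite directions in Tconvs (below), the 250 bases before the outermost annotated start of each are shown, read from the RefSeq copy of GRCm38. The *Cbl* sequence is chr9:44234260-44234509 on the minus strand and the *Cblb* sequence is chr16:52030975-52031224 on the plus strand. Capitals mark the NFAT core motif GGAAA or its reverse complement TTTCC.
Cbl: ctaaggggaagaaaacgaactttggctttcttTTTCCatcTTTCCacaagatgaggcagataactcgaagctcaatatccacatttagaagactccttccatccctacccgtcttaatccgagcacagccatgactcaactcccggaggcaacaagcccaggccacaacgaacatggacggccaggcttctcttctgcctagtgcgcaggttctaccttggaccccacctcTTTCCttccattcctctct
Cblb: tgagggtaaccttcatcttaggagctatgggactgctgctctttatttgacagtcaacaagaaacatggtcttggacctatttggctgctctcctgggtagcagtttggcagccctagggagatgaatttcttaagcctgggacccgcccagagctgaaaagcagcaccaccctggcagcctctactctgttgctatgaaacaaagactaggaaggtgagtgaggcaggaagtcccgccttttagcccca
The *Cbl* sequence held 3 matches and that of *Cblb* held 0. *Dgka* held 2, in a window that overlaps an exon of *Gm31504*, and *Dgkz* and *Rnf128* held 0. Of 21929 protein-coding genes, 57.5% had at least 1 match in the same 250 bases, 23.1% had 2 or more and 7.45% had 3 or more. The absence of a match says only that these 5 letters are not in this window. *Itch* and *Ndrg1* were not read, because they were not among the promoters in the RefSeq table used to select genes.

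Per kilobase of exon, *Dgka* was the most abundant of the 7 in each of the 8 groups, with means between 693 normalized counts per kilobase in restimulated iTregs and 2970 in resting Tconvs. The means of *Dgkz*, *Cbl*, *Cblb*, *Itch* and *Ndrg1* lay between 28.2 and 270 per kilobase in all groups. *Rnf128* was nearly absent, with means from 0.221 to 2.54. Over the 8 group means, *Ndrg1* varied most among the 6 well-measured genes, by 6.59-fold between its highest and lowest group, followed by *Dgka* with 4.29-fold. *Cblb* varied by 3.33-fold, *Cbl* by 3.24-fold, *Itch* by 2.69-fold and *Dgkz* by 1.71-fold.

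**Figure D1:**
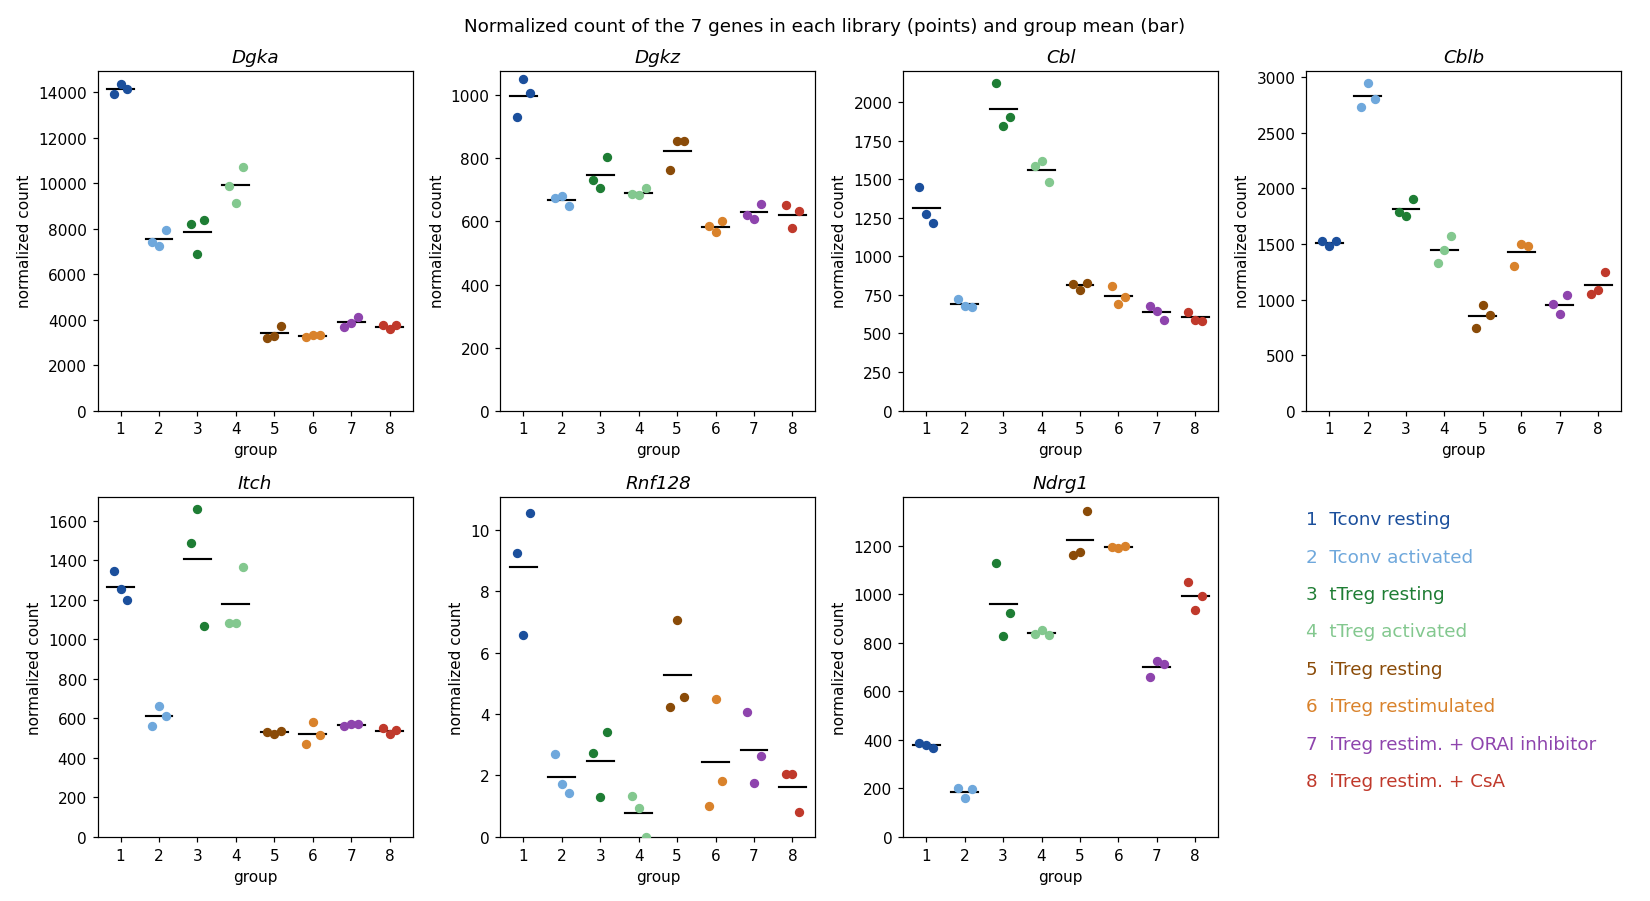
Normalized count (y axis, linear from 0) of each of the 7 genes in the 24 libraries, by group (x axis, numbered as in the key). Points are libraries and bars are group means of 3. *Dgka* is low in all 4 iTreg groups, and *Itch* is low in these and in activated Tconvs. *Ndrg1* is low in Tconvs, and *Cblb* is highest in activated Tconvs.

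Genes that reached 10 normalized counts in 3 or more libraries entered the test, made with limma on log2(normalized count + 1), with p-values adjusted over all genes of the fit. A gene is said to rise or fall where the adjusted p was below 0.05 and the log2 fold change beyond 0.5 in either direction, the thresholds of the study's methods. Of the 7 genes, 6 were tested, and *Rnf128* was too low. Whether libraries overlap between groups is given as a description only, without the share of all genes that do not overlap. In bulk RNA, fewer cells of a type and less RNA per cell cannot be told apart.

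The first comparison asked how Tconvs and tTregs respond to activation. In Tconvs all 6 tested genes changed, where 50.2% of the 11495 genes tested did: 5 fell, where 25.7% of all genes fell, and only *Cblb* rose, where 24.5% rose. The median log2 fold change of the 6 genes was -0.92, against -0.04 over all genes.

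Both diacylglycerol kinases fell in activated Tconvs. *Dgka* was at 13912, 14379 and 14144 normalized counts in the 3 resting libraries and at 7411, 7258 and 7936 in the activated ones, and the groups did not overlap. Its log2 fold change was -0.91 (SE 0.090, adjusted p = 5.6e-07). *Dgkz* was at 931, 1053 and 1008 resting and at 675, 680 and 648 activated, also without overlap. It fell by 0.58 on the log2 scale (SE 0.079, adjusted p = 1.5e-05), the smallest change of the 6.

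The ligases moved in opposite directions. *Cbl*, which encodes c-Cbl, was at 1450, 1272 and 1218 normalized counts in resting Tconvs and at 721, 675 and 673 in activated ones. *Cblb*, whose product restrains TCR signaling in the absence of CD28 costimulation, went the other way, from 1523, 1484 and 1529 to 2734, 2947 and 2800. Neither gene's groups overlapped. The log2 fold change was -0.92 for *Cbl* (SE 0.082, adjusted p = 1.6e-07) and 0.90 for *Cblb* (SE 0.089, adjusted p = 5.2e-07). *Itch*, a HECT ligase of the NEDD4 family, was at 1347, 1255 and 1196 resting and at 560, 661 and 611 activated, a log2 fold change of -1.05 (SE 0.14, adjusted p = 9.6e-06). *Ndrg1* fell from between 367 and 389 to between 160.4 and 200.2, a log2 fold change of -1.03 (SE 0.11, adjusted p = 1.7e-06).

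In tTregs, none of the 6 genes passed both thresholds on activation by limma, where 21.9% of all genes did. edgeR and DESeq2, run on the recovered reads, also called 0 of them, and 3 of the 6 had an unadjusted limma p below 0.05. *Dgka* was at 8206, 6902 and 8393 normalized counts in resting tTregs and at 9894, 9128 and 10710 in activated ones, which were all higher, a log2 difference of 0.34 (adjusted p = 0.0097). *Cbl* was at 2124, 1841 and 1901 resting and at 1585, 1618 and 1484 activated, all lower, a log2 difference of -0.32 (adjusted p = 0.0077). *Cblb* was at 1792, 1754 and 1901 resting and at 1328, 1446 and 1571 activated, a log2 difference of -0.33 (adjusted p = 0.011). These 3 differences were below the fold threshold. *Dgkz*, *Itch* and *Ndrg1* had adjusted p-values of 0.30, 0.19 and 0.24, and 95% intervals of the log2 difference of -0.28 to 0.06, -0.53 to 0.05 and -0.42 to 0.06. *Itch* was also the most variable of the 6 in resting tTregs, with libraries at 1486, 1660 and 1068.

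The difference between both responses, tested as an interaction in the same fit, passed for 5 of the 6 genes, against 34.7% of all genes. For *Cblb* the Tconv response was larger by 1.23 on the log2 scale (SE 0.13, adjusted p = 2.7e-06), and it pointed up in Tconvs and down in tTregs. For *Dgka* the difference was -1.25 (SE 0.13, adjusted p = 2.7e-06), pointing down in Tconvs and up in tTregs. For *Cbl*, *Itch* and *Ndrg1*, which fell in Tconvs and did not pass in tTregs, the interaction values were -0.60, -0.81 and -0.85 (adjusted p = 0.00083, 0.0041 and 0.00077). *Dgkz* had -0.47 (adjusted p = 0.0040), under the fold threshold. It passed without replicate 1 of resting Tconvs (-0.52) and without replicate 3 of resting tTregs (-0.52).

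**Figure D2:**
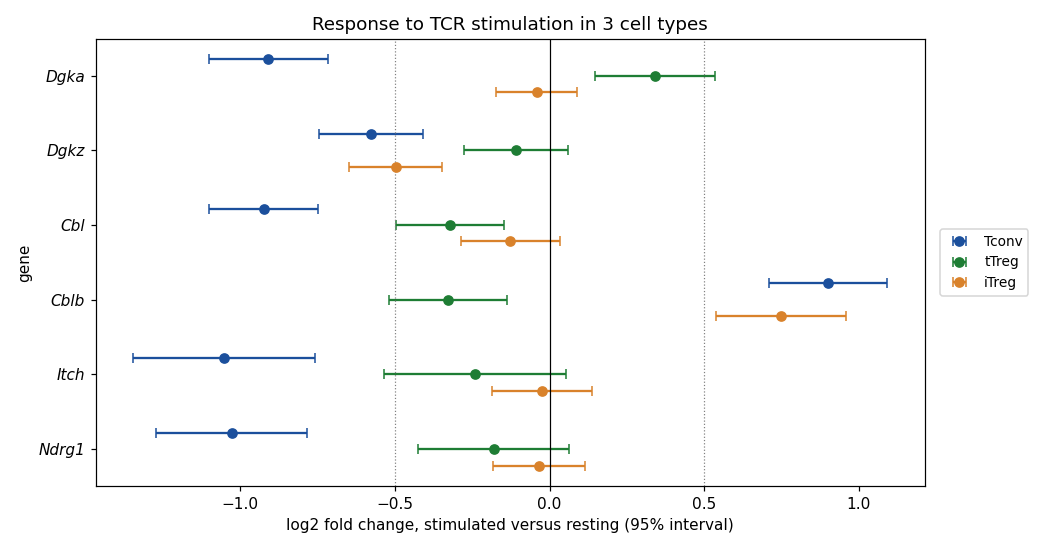
Log2 fold change (x axis) on stimulation of the 6 tested genes (y axis) in Tconvs, tTregs and iTregs, with 95% intervals from limma (3 libraries a group). Dotted lines mark 0.5 and -0.5. *Cblb* is to the right in Tconvs (0.90) and iTregs (0.75) and to the left in tTregs (-0.33), and *Dgkz* is the one gene near -0.5 in both Tconvs (-0.58) and iTregs (-0.50).

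Other genes of the same pathways were taken from lists that hold none of the 7. Of 16 tested genes that encode other diacylglycerol kinases and the makers or readers of diacylglycerol, 0 rose and 11 fell in activated Tconvs (median log2 fold change -0.75), where 25.7% of all genes fell. By edgeR and by DESeq2, 9 of the 16 changed. The largest falls were those of *Prkd3*, a protein kinase D, from 1232 ± 69.2 to 196.2 ± 24.5 normalized counts (SD, n = 3; log2 fold change -2.65), of *Dgkh*, another diacylglycerol kinase (-1.71), and of *Rasgrp2* (-1.69). In tTregs 0 of the 16 rose and 5 fell, where 21.9% of all genes changed, and *Prkce* had the largest log2 fold change, -0.87. Of 15 tested ligases, adaptors and deubiquitinases, 2 rose and 8 fell in Tconvs (median -0.56), and 0 rose and 2 fell in tTregs (median -0.27), where 50.2% and 21.9% of all genes changed. *Peli1*, an E3 ligase that limits T cell activation, fell in both, from 2512 ± 105 to 904 ± 27.5 in Tconvs (log2 fold change -1.47) and from 1980 ± 231 to 1337 ± 135 in tTregs (-0.56).

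The list of 10 other anergy-linked genes did not move one way. Of its 9 tested genes, 5 rose and 3 fell in activated Tconvs, where 24.5% of all genes rose and 25.7% fell. *Lag3*, an inhibitory receptor, rose from 45.6 ± 7.48 to 1457 ± 21.1 normalized counts (log2 fold change 4.98), and *Egr2*, a transcription factor induced by calcium and NFAT that drives several anergy genes, rose from 6.61 ± 0.777 to 85.0 ± 11.3 (3.50). *Tob1*, an inhibitor of proliferation that is high in quiescent T cells, fell from 629 ± 29.9 to 44.9 ± 10.8 (-3.80). In tTregs, where 21.9% of all genes changed, 2 of the 9 did, both upwards, among them *Lag3* (2.86). The response of *Egr2* differed between Tconvs and tTregs by 3.47 (adjusted p = 4.9e-05), and its levels in tTregs were 14.6 ± 5.44 resting and 15.6 ± 8.76 activated. Of the other NDRG family genes, *Ndrg4* fell in Tconvs (-1.59) and *Ndrg2* and *Ndrg3* did not pass. In tTregs 0 of 3 passed by limma, edgeR or DESeq2, with 0 at an unadjusted limma p below 0.05. With 21.9% of all genes changed there, a count of 0 among 3 is no result about this list.

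The second comparison set the cell types side by side at rest. Against resting Tconvs, 3 of the 6 genes differed in resting tTregs, where 38.6% of all genes did. *Dgka* was lower in tTregs, with a log2 difference of -0.86 (SE 0.090, adjusted p = 1.7e-06), a call that quantile normalization ended (-0.43, adjusted p = 0.0030). *Cbl* was higher by 0.58 (SE 0.082, adjusted p = 3.4e-05), and *Ndrg1* was higher by 1.33 (SE 0.11, adjusted p = 1.8e-07), at 1128, 828 and 924 normalized counts against 389, 379 and 367. None of these 3 genes overlapped between the groups, a description given without the share of all genes. *Dgkz* (-0.42, adjusted p = 0.00046) and *Cblb* (0.26, adjusted p = 0.023) were under the fold threshold, and *Itch* had an adjusted p of 0.46 with a 95% interval of -0.17 to 0.42.

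iTregs stood further from Tconvs than tTregs did in *Dgka*, which was at 3214, 3274 and 3722 normalized counts in resting iTregs, a log2 difference from resting Tconvs of -2.06 (SE 0.090, adjusted p = 3e-11). In all, 5 of the 6 genes differed between resting iTregs and resting Tconvs, where 63.6% of all genes did. *Cbl* (-0.69), *Cblb* (-0.84) and *Itch* (-1.25) were lower in iTregs as well, with adjusted p-values of 2.1e-06, 6.3e-07 and 8.7e-07. *Ndrg1* alone was higher, at 1159, 1174 and 1341, a log2 difference of 1.69 (SE 0.11, adjusted p = 3.6e-09). *Dgkz* had -0.27 (adjusted p = 0.0058), under the fold threshold. Quantile normalization moved the median of all genes in the comparisons of iTregs with the sorted cells by -0.10 to -0.13 on the log2 scale and changed none of the calls of these genes there.

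iTregs arise from naive T cells that have been activated, so they were also compared with activated Tconvs. There 3 of 6 genes differed, against 41.6% of all genes. *Cblb* was lower in iTregs, 743, 949 and 857 normalized counts against 2734, 2947 and 2800, a log2 difference of -1.74 (SE 0.089, adjusted p = 6.3e-10). *Dgka* was also lower (-1.15, adjusted p = 7.1e-08), and *Ndrg1* was 6.58-fold higher (log2 2.72, SE 0.11, adjusted p = 8e-11). *Itch* and *Cbl* were near the level of activated Tconvs, with log2 differences of -0.20 (95% interval -0.50 to 0.09) and 0.24 (0.06 to 0.41, adjusted p = 0.023).

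Against resting tTregs, 4 of 6 genes were lower in resting iTregs and none was higher, where 31.1% of all genes were lower and 63.4% changed in either direction. *Itch* differed most, with a log2 difference of -1.38 (SE 0.14, adjusted p = 3.3e-07), at 523 to 537 normalized counts in iTregs against 1068 to 1660. *Cbl* followed with -1.26 (SE 0.082, adjusted p = 2.8e-09), *Dgka* with -1.20 (SE 0.090, adjusted p = 1.5e-08) and *Cblb* with -1.10 (SE 0.089, adjusted p = 3.4e-08). For each of these 4 genes the lowest tTreg library lay above the highest iTreg library, a description given without the share of all genes. *Ndrg1* was under the fold threshold (0.36, adjusted p = 0.010), and *Dgkz* had an adjusted p of 0.12 with a 95% interval of -0.03 to 0.31. *Cbl* thus had opposite signs against resting Tconvs in the Treg types, higher in tTregs and lower in iTregs.

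**Figure D3:**
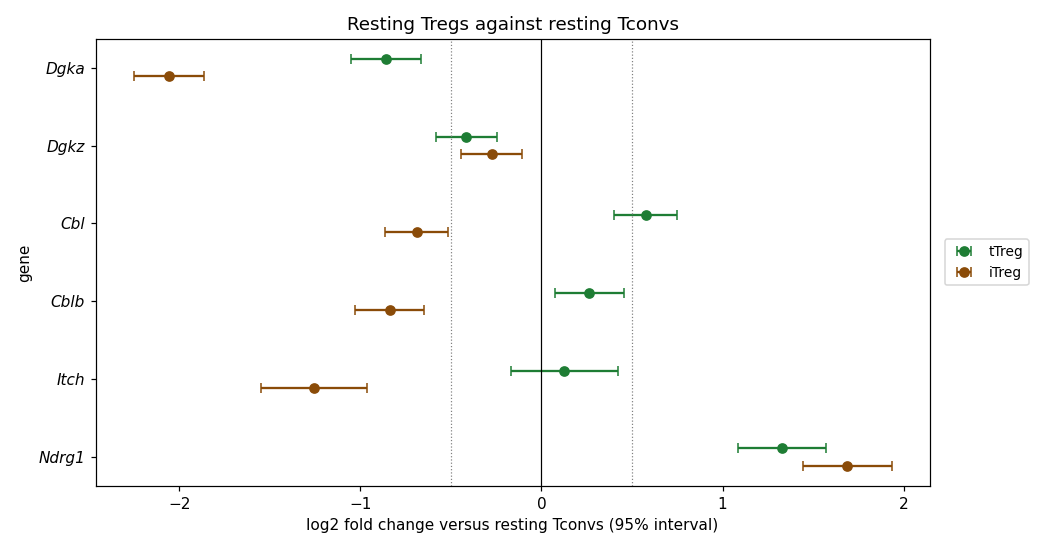
Log2 fold change against resting Tconvs (x axis) of the 6 tested genes (y axis) in resting tTregs and resting iTregs, with 95% intervals from limma (3 libraries a group). Dotted lines mark 0.5 and -0.5. *Ndrg1* is higher in both (1.33 and 1.69), *Dgka* lower in both (-0.86 and -2.06), and *Cbl* lies on opposite sides (0.58 and -0.69).

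The related genes at rest showed the same mixture. In resting tTregs 4 genes of the diacylglycerol list were higher and 6 lower than in resting Tconvs. *Dgkg*, the γ kinase, was at 40.4 ± 14.3 normalized counts in resting and 54.6 ± 22.5 in activated tTregs and at means of 0.586 to 4.05 in every other group, a log2 difference at rest of 4.02. *Rasgrp2* was lower in tTregs (-1.96) and in iTregs (-2.72). In resting iTregs 10 genes of this list were lower than in resting Tconvs and 3 higher (median -1.18). The largest rise was that of *Rasgrp4*, with 59.2 ± 4.91 in iTregs against 2.97 ± 3.64 in Tconvs (4.40). Of the ligase list 4 genes were higher and 3 lower in tTregs, and 3 higher and 6 lower in iTregs. *Nedd4*, which like *Itch* encodes a HECT ligase, was higher in iTregs, at 490 ± 35.8 against 46.9 ± 5.31 (3.36), while *Peli1* was lower (-2.36). Of the 9 genes of the anergy list, 6 were higher and 2 lower in tTregs, and 5 were higher and 3 lower in iTregs. *Izumo1r*, which encodes folate receptor 4, was higher in both (4.03 and 3.54). Of all genes, 38.6% differed between resting tTregs and Tconvs and 63.6% between resting iTregs and Tconvs.

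The third comparison followed iTregs from rest to restimulation. *Cblb* was the only one of the 6 genes to change, where 12.8% of the 11105 genes tested did and 6.7% rose. It rose from 743, 949 and 857 normalized counts to 1297, 1496 and 1482, without overlap, a log2 fold change of 0.75 (SE 0.099, adjusted p = 4.6e-05). *Dgkz* came just short of the fold threshold, at 762, 857 and 857 resting and 584, 566 and 600 restimulated (-0.50, SE 0.071, adjusted p = 9.3e-05). Its libraries did not overlap, and it passed without replicate 1 of resting iTregs (-0.55) or without replicate 3 of restimulated iTregs (-0.52). *Dgka*, *Itch* and *Ndrg1* had 95% intervals of -0.17 to 0.09, -0.19 to 0.14 and -0.18 to 0.11, and *Cbl* of -0.29 to 0.03.

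The restimulation response of iTregs was then set against the activation responses of the sorted cells in a fit of all 24 libraries. It differed from the Tconv response for 4 of 6 genes, all with a higher response in iTregs, where 44.2% of all genes differed and 21.7% were higher. *Dgka*, *Cbl*, *Itch* and *Ndrg1*, which all fell in Tconvs, had iTreg responses higher by 0.87, 0.80, 1.03 and 0.99 on the log2 scale (adjusted p = 7.4e-07, 4.1e-06, 3.6e-05 and 3.1e-06). None of the 4 had passed the thresholds on restimulation itself. For *Cblb* the iTreg and Tconv responses differed by -0.15 (95% interval -0.42 to 0.12), and for *Dgkz* by 0.08 (-0.13 to 0.29). Against the tTreg response only *Cblb* passed, with an iTreg response higher by 1.08 (SE 0.13, adjusted p = 2.8e-06), where 21.3% of all genes passed and 9.01% were higher. *Dgka* (-0.38, adjusted p = 0.011) and *Dgkz* (-0.39, adjusted p = 0.0058) were under the fold threshold.

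The fourth comparison asked what the ORAI inhibitor and CsA change in restimulated iTregs. With the ORAI inhibitor *Cblb* and *Ndrg1* were lower than without it, 2 of 6 genes, where 1.79% of all genes were lower and 3.3% changed in either direction. *Cblb* was at 956, 866 and 1042 normalized counts with the inhibitor, all below the restimulated libraries, a log2 difference of -0.58 (SE 0.099, adjusted p = 0.0019). Its mean, 955 ± 88.2, lay next to that of resting iTregs, 850 ± 103, and the libraries of these groups overlapped. *Ndrg1* was at 659, 724 and 713 with the inhibitor against 1193, 1191 and 1197 without it, a log2 difference of -0.77 (SE 0.070, adjusted p = 7.9e-06). Unlike *Cblb*, *Ndrg1* had not passed the test on restimulation, and all 3 of its libraries with the inhibitor lay below those of resting iTregs as well. *Dgka* was higher with the inhibitor by 0.23, under the fold threshold (adjusted p = 0.030).

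With CsA none of the 6 genes passed by limma, where 2.92% of all genes did, nor by edgeR or DESeq2, and 4 of the 6 had an unadjusted limma p below 0.05. *Cblb* was at 1050, 1085 and 1250 normalized counts, all below the 3 restimulated libraries, a log2 difference of -0.34 (adjusted p = 0.047). *Ndrg1* was at 1049, 934 and 994, also without overlap (-0.27, adjusted p = 0.028), and *Cbl* at 641, 590.1 and 581 against 806, 694 and 737 (-0.30, adjusted p = 0.023). All 3 had the same sign as with the ORAI inhibitor, but both comparisons share the restimulated libraries.

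Compared with each other, the inhibitors differed in 1 of 6 genes, where 0.36% of all genes differed and 0.261% were lower with the ORAI inhibitor. *Ndrg1* was lower with the ORAI inhibitor than with CsA, a log2 difference of -0.50 (SE 0.070, adjusted p = 0.0018) with all 3 libraries of one group below those of the other. It lay close to the fold threshold, and without replicate 1 of the ORAI inhibitor group, or without replicate 1 of the CsA group, it was -0.46 and not called. For *Cblb* the difference was -0.24 (95% interval -0.45 to -0.03, adjusted p = 0.37). The inhibitors are compounds of different kinds with different targets, and the labels give no dose.

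**Figure D4:**
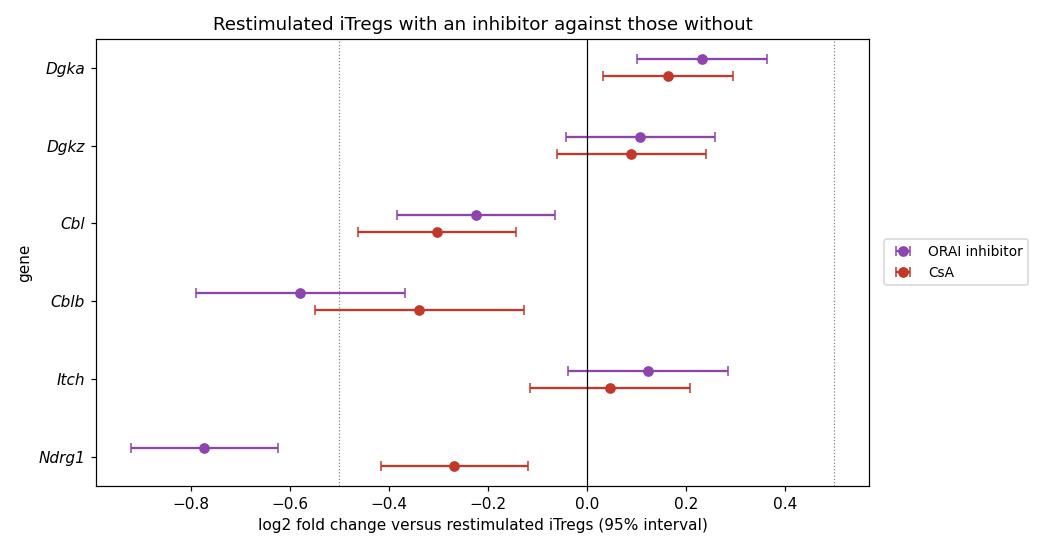
Log2 fold change against restimulated iTregs (x axis) of the 6 tested genes (y axis) in iTregs restimulated with the ORAI inhibitor or with CsA, with 95% intervals from limma (3 libraries a group). Dotted lines mark 0.5 and -0.5. *Ndrg1* (-0.77) and *Cblb* (-0.58) lie beyond -0.5 with the ORAI inhibitor, and no gene does with CsA.

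None of the 15 tested genes of the diacylglycerol list and none of the 14 of the ligase list passed with either inhibitor by limma, edgeR or DESeq2. By limma 3.3% and 2.92% of all genes passed with the ORAI inhibitor and with CsA, so counts of 0 in lists this short are no result about them. At an unadjusted limma p below 0.05 there were 5 and 2 of them with the ORAI inhibitor and 4 and 3 with CsA. In the anergy list, *Egr2* was at 76.4 ± 15.1 normalized counts in restimulated iTregs, 36.0 ± 7.24 with the ORAI inhibitor (log2 difference -1.06, adjusted p = 0.023) and 33.6 ± 12.3 with CsA (-1.21, adjusted p = 0.011). *Lag3* was at 1323 ± 150 without inhibitor, 773 ± 34.8 with the ORAI inhibitor (-0.77) and 881 ± 55.4 with CsA (-0.58). *Nr4a1*, an orphan nuclear receptor induced by the TCR, was lower with the ORAI inhibitor (-0.82, adjusted p = 0.021), at 38.8 ± 11.6 against 67.0 ± 4.55, and was at 62.6 ± 1.83 with CsA. *Lag3* and *Nr4a1* had risen on restimulation (log2 fold changes 1.10 and 0.73).

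The related genes were counted on restimulation as well, where 12.8% of all genes passed. Of the diacylglycerol list 0 rose and 4 of 15 fell, with the largest log2 fold change in *Rasgrp2* (-1.13), and the ligase list had 1 rise, *Nedd4* (0.94, from 490 ± 35.8 to 942 ± 19.9 normalized counts), and 1 fall, *Nedd4l* (-0.88), of 14. Of the 9 genes of the anergy list 2 rose, *Lag3* and *Nr4a1*, and 2 fell, *Nrp1* (-1.15) and *Tob1* (-0.71). The other NDRG genes passed in none of 3 by limma, edgeR or DESeq2, with 0 at an unadjusted limma p below 0.05.

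*Rnf128* was at or near the limit of detection throughout. The 3 resting Tconv libraries held 9, 7 and 12 reads, worth 9.26, 6.57 and 10.5 normalized counts. Resting iTregs held 4, 7 and 6 reads, and the other 6 groups held between 0 and 4 reads in each library. A floor of 3 reads, below which a gene was not taken as detected, equals 2.12 to 5.45 normalized counts depending on the library, and it covers counting error only. Resting Tconvs were thus the one group with all 3 libraries above the highest floor. Without the filter on low counts, *Rnf128* was lower in activated than in resting Tconvs (adjusted p = 0.0017), and in tTregs and iTregs no change on stimulation was detectable at this depth (adjusted p = 0.072 and 0.13).

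The order of the groups differed from gene to gene. *Dgka* ran from resting Tconvs through activated tTregs, resting tTregs and activated Tconvs to the iTreg groups. Neighbours in this order overlapped only between resting tTregs and activated Tconvs (means 7834 and 7535) and among the 4 iTreg groups, so 3 levels stood apart above the iTregs. *Cbl* ran from resting tTregs (1956 ± 149.3) to activated tTregs (1562 ± 69.7) and resting Tconvs (1313 ± 121.4), each apart from the next, and the 5 groups below these overlapped with their neighbours, between means of 813 and 604. *Itch* had 3 groups at 1068 or more in every library (resting and activated tTregs and resting Tconvs) and 5 groups at 661 or less, with no library between. *Ndrg1* was highest in resting and restimulated iTregs (1225 ± 100.7 and 1194 ± 3.04), then in CsA-treated iTregs and both tTreg groups, where neighbours overlapped, and stood apart below these in ORAI-inhibited iTregs (699 ± 34.99), resting Tconvs (378 ± 10.96) and activated Tconvs (185.8 ± 22.0). *Cblb* was highest in activated Tconvs (2827 ± 109.0) and lowest in resting iTregs, and *Dgkz* spanned the narrowest range, from 997 ± 61.9 in resting Tconvs to 583 ± 17.2 in restimulated iTregs.

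As a description over all 24 libraries, which share groups and scaling, *Cbl* and *Itch* were the most alike pair of the 6 tested genes (Pearson's r = 0.91 on log2 values), followed by *Dgka* and *Itch* (0.84). *Cblb* and *Ndrg1* ran in opposite directions (-0.70), and *Cbl* and *Cblb* were only loosely alike (0.26). Among the 11725 genes expressed in these libraries, those most alike to *Cblb* were *Usp18* (0.91), *Trim12c* (0.90) and *Irf9* (0.90), of which *Usp18* and *Irf9* are known as interferon-induced genes. *Usp18* was at 169.8 ± 3.47 normalized counts in resting and 673 ± 63.7 in activated Tconvs, and at 107.2 ± 12.5 in resting and 202.8 ± 15.6 in restimulated iTregs. For *Ndrg1* they were *P4ha1* (0.95), which encodes a prolyl hydroxylase of collagen synthesis, *Ppp1r3b* (0.95) and *Acot11* (0.94). For *Dgka* they were *Fam169b*, *Cd164* and *Tcp11l2* (each 0.98), for *Cbl* *Arhgap31*, *Pik3r1* and *Pou2f1* (0.98, 0.97 and 0.97) and for *Itch* *Lnpep*, *Macf1* and *Phf3* (each 0.98). *Dgkz* varied too little for such a ranking.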

How the data were processed

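Total RNA of sorted or cultured mouse T cells was made into full-length poly(A) libraries (Smart-seq2 type). Per the submitters' processing notes and the study's methods, the authors trimmed reads with cutadapt 1.18, aligned them to mm10 with STAR 2.5.3 and counted them on GENCODE genes with RSEM 1.3.0. The values the authors deposited are a normalized signal per gene and library, in which a library's counts share a single divisor, and they were used as deposited. Divided by the library's lowest value above 0, 100% of the values came out whole (tolerance 0.001 reads), which gave the reads used for depth and for the alternatives with edgeR and DESeq2.

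Genes reaching 10 normalized counts in 3 or more libraries were fitted on log2(value + 1) with limma 3.58.1 (R 4.3.3, trend in the prior variance) and Benjamini-Hochberg adjustment, in fits of 15 libraries (Tconvs, tTregs and resting iTregs; 11495 genes), 12 libraries (iTregs; 11105) and, for comparing iTreg with other responses, all 24 (11725). Fold changes are on the log2(value + 1) scale. The fit was tested on simulated data that gave every group the same spread, so that test does not cover the wider spread of tTregs. Replicates differed by 2.69 to 36.3 times the variance of counting. They did so by 12.7 to 36.3 times in the tTreg groups and by 3.01 to 9.36 times in the Tconv groups. Groups of a fit share an estimate of each gene's spread, so the intervals for tTregs can be too narrow. The members and gene lists were chosen with earlier results of these data known. Of the named lists, at most the 3 called genes with the largest change in a comparison were named, and the 3 genes with the highest correlation to each member whose group means span at least 1 on the log2 scale. Alternatives were quantile normalization, size factors recomputed per fit, a pseudocount of 0.1 or of 5, a filter of 100 or none, separate fits of the groups in a comparison, a block for the replicate number, leaving out each library, and, chosen after seeing the data, edgeR 4.0.16 and DESeq2 1.42.0 on the reads. Other assays of the series were not analysed here, and some genes of the lists are not reported here by name.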

Additional observations from a re-analysis of the deposited data

Results flagged for a closer look

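In 10 cases the response of a gene to stimulation differed between cell types by a test of the difference itself (limma interaction, log2 scale, 3 libraries a group, adjusted p below 0.05 and a difference beyond 0.5). Over all genes, 34.7% differed in response between Tconvs and tTregs, 44.2% between iTregs and Tconvs and 21.3% between iTregs and tTregs. Tconvs and tTregs differed in *Dgka* (-1.25), *Cbl* (-0.60), *Itch* (-0.81) and *Ndrg1* (-0.85), where the Tconv response was lower, and in *Cblb* (1.23), where it was higher. *Dgka* and *Cblb* were the genes whose responses had opposite signs in these cells. Restimulated iTregs had a higher response than activated Tconvs in *Dgka* (0.87), *Cbl* (0.80), *Itch* (1.03) and *Ndrg1* (0.99). These 4 genes fell in Tconvs and did not pass the thresholds on restimulation of iTregs, so the higher response was not a rise. Restimulated iTregs also had a higher response than activated tTregs in *Cblb* (1.08). The comparisons with Tconvs share the Tconv libraries, and those with tTregs share the tTreg libraries.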

How the results depend on the processing

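Of 520 values of the genes under the alternatives other than leaving out a library, 519 kept their direction and their side of the thresholds and 1 did not: *Dgka* in resting tTregs against resting Tconvs under quantile normalization (-0.43, adjusted p = 0.0030). With single libraries left out, 384 of 390 did, 2 values lost a call and 4, all of *Dgkz*, gained one. The number of the 6 genes called on restimulation of iTregs ranged from 1 to 2 (2 without replicate 1 of resting or replicate 3 of restimulated iTregs), between the inhibitors from 0 to 1 (0 without replicate 1 of either group), and in the difference between the Tconv and tTreg responses from 5 to 6 (6 without replicate 1 of resting Tconvs or replicate 3 of resting tTregs). In the other 10 comparisons it did not move. No value reversed.

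Whether the replicate numbers mark pairs was not settled. In no pair of groups did all same-numbered libraries deviate together at a correlation above 0.1. All 6 libraries lay closest to their own number in 3 of 10 comparisons of groups. These were activated against resting Tconvs, resting iTregs against activated Tconvs, and CsA-treated against restimulated iTregs. In each of the 10 that included tTregs, 0 libraries did. The replicate block left the number of these genes called at 6 in activated Tconvs, 0 in tTregs, 5 in the difference between them, 3, 5, 3 and 4 in the comparisons at rest, 1 on restimulation, 2 with the ORAI inhibitor, 0 with CsA, 1 between the inhibitors, and 4 and 1 in the differences between iTreg responses and those of Tconvs and tTregs. In proportion, the largest shift over all genes under the block was from 40 to 51 calls, between the inhibitors. *Rnf128* had at most 12 reads in a library, and whether depth or low expression set this was not tested.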
